A study of Mus musculus with 4 samples.

Results

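The genes described here are 9 members of the Eph receptor and ephrin families, followed across 4 mouse lung cancer cell lines: the ephrins Efna1, Efnb1 and Efnb2 and the receptors Epha1, Epha2, Epha4, Ephb2, Ephb3 and Ephb4. They were chosen by gene symbol, and all 9 were found, each on 1 row, among the 34147 distinct symbols of the deposited table. The values are FPKM (fragment counts relative to the length of the transcript and to the depth of the library), so levels can be compared between genes per unit of length. Both metastatic lines, 238N1 and 482N1, derive from lymph nodes, and both non-metastatic lines, 368T1 and 394T4, from the lung, by their labels. Metastatic status and site of origin therefore cannot be told apart in any comparison of the groups. All 4 carried the same tumour genotype, which includes p53flox/flox, on the 129S1/SvImJ background. A lentiviral Cre recombinase deletes the floxed p53 alleles, so that, by design, both groups share the p53 loss. The labels' growth notes describe cancer cells kept in culture while their treatment notes speak of tumour samples, so whether host cells were present is not settled by the labels. The libraries are treated here as cultured lines. Each line is a single line with 1 library, and nothing in the labels gives the age of the mice or says whether lines came from separate animals, so p-values measure only the spread between these 4 libraries.

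Eph receptors are receptor tyrosine kinases whose ligands, the ephrins, sit on the surface of neighbouring cells, so that signals pass at cell contact and can run in both directions. A-type ephrins are tied to the membrane by a lipid anchor and bind mainly EphA receptors, while B-type ephrins span the membrane, bind mainly EphB receptors and also EphA4, and signal through their own tails. The system is known for repulsion and sorting between cells, and human EPHA2 is abundant in many carcinomas, those of the lung among them.

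The libraries themselves differed in ways that touch these genes. Their FPKM values summed to between 924354 and 2279794, of which a single non-coding row took 18.7% to 62.4%, while the sums over protein-coding genes lay between 412799 and 491717. Read totals are unknown, but the steps between the smallest values put 482N1, 368T1 and 394T4 at 0.581, 0.610 and 0.554 of the depth of 238N1, if all libraries were scaled alike. All 5 epithelial markers reached 1 FPKM in every line, but not evenly (sums of 1511 to 2177 FPKM in metastatic and 2754 to 2973 FPKM in non-metastatic lines). The keratin Krt18 stood at 890.1 to 1450 FPKM over the lines, while Krt7 was at 349.6 (238N1) and 6.90 FPKM (482N1), against 456.0 (368T1) and 480.0 FPKM (394T4). Epcam, an epithelial adhesion molecule, was at 4.13 (238N1) and 4.76 FPKM (482N1), against 54.0 (368T1) and 34.3 FPKM (394T4), and so lower in both metastatic lines. For Cdh1, another of the 5 markers, the groups overlapped, at 173.8 (238N1) and 104.4 FPKM (482N1), against 108.7 (368T1) and 155.1 FPKM (394T4). The part of these marker differences in the results on Eph receptors and ephrins was not tested. Of 7 endothelial markers none reached 1 FPKM in any line (sums of 0.256 to 0.398 FPKM in metastatic and 0.898 to 0.909 FPKM in non-metastatic lines), and Pecam1 and Tek were listed at 0 in all. Of 8 fibroblast and pericyte markers, 4 reached 1 FPKM in 482N1: Acta2 (16.3 FPKM), Col1a1 (16.3), Col3a1 (5.82) and Pdgfrb (1.22). The 8 markers summed to 39.8 FPKM in 482N1, against 0.678 in 238N1, 2.47 in 368T1 and 4.30 in 394T4. Col1a2, Dcn and Lum were listed at 0 in all 4 lines. Of the 7 leukocyte markers in the table, Cd68 alone reached 1 FPKM (sums of 2.27 to 2.83 FPKM in metastatic and 2.07 to 2.78 FPKM in non-metastatic lines), and Ptprc was listed at 0 in every line. Fewer cells of a type and less RNA per cell cannot be told apart in such bulk libraries.

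Promoter sequences are shown for the 4 genes whose metastatic and non-metastatic lines did not overlap in level, as described further on. Each runs from 250 bases before to 50 bases after the gene's start, read 5′ to 3′ on the gene's own strand, from RefSeq on GRCm38.p6. The windows are chrX:99135811-99136110 (plus strand) for Efnb1, chr6:42373219-42373518 (minus strand) for Epha1, chr4:141300971-141301270 (plus strand) for Epha2 and chr4:136835963-136836262 (minus strand) for Ephb2. Capitals mark every match, on either strand, to the E-box CACCTG, the AP-1 site TGANTCA, the cAMP response element TGACGTCA or the TEAD site ACATTCC.
Efnb1: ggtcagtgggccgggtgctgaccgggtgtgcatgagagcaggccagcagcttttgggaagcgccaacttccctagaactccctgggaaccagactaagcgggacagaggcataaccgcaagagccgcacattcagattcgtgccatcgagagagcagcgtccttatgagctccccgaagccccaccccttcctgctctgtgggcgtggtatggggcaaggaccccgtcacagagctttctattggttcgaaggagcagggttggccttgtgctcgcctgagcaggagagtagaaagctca
Epha1: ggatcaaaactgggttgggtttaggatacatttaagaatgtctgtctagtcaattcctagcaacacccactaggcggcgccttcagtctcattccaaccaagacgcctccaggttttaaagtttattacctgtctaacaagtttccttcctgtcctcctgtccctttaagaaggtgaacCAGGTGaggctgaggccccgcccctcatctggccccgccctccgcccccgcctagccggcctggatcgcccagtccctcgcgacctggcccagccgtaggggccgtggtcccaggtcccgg
Epha2: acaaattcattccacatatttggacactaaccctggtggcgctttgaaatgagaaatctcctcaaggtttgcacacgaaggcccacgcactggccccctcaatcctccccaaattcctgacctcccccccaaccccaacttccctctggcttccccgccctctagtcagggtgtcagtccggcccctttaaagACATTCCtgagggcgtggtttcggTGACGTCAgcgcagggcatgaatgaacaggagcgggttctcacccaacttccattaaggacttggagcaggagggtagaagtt
Ephb2: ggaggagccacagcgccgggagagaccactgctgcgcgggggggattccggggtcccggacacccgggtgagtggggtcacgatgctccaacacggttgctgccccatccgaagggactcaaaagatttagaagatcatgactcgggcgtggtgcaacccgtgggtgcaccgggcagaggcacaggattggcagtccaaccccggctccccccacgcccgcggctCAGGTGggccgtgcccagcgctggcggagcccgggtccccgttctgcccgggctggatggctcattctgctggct

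The E-box CACCTG, a sequence that Snail and Zeb family repressors are known to bind, was found once in the Ephb2 window, beginning at position -25 from the start, and once in the Epha1 window, at -71, both times as CAGGTG. It was also found at -167 in the Efnb2 window, and so in 3 of 10 windows, Efna1 having 2 windows and each other gene 1. Of all 32851 promoter windows of that length, 20.2% held it. The Epha2 window held the TEAD site at -57, as did 3.85% of all windows, and the cAMP response element at -33, as did 1.79%. The AP-1 letters, present in 7.81% of all windows, were in none of the 10, and the Efnb1 window held none of the 4 motifs. The motifs do not overlap one another in these windows. The motifs were chosen after these sequences had been seen, and a match is a match of letters only.

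Epha2, a receptor for A-type ephrins, had by far the highest listed FPKM of the 9 genes. It measured 95.7 FPKM in 238N1 and 120.2 in 482N1, against 155.6 in 368T1 and 129.8 in 394T4. All 4 values lay above those listed for every other gene of the family. Epha2 was higher than 92.4% to 94.9% of the 12425 genes tested in each line. The order of the mean levels over the 4 lines went on with Efnb2 (36.0 FPKM), Efnb1 (24.4), Efna1 (18.9), Epha4 (12.8), Ephb3 (2.45), Epha1 (1.55) and Ephb2 (1.44). Ephb4, listed at 0 in every line, was not placed in this order. The mean of Ephb3 counts 2 lines listed at 0 as 0. Neighbours from Efnb2 down to Epha4 overlapped in their ranges over the lines, while Efnb2 stood above Efnb1 within each of the 4 lines. The ranges of Ephb3, Epha1 and Ephb2 overlapped one another, and all 3 lay below every value of Epha4.

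**Figure D1:**
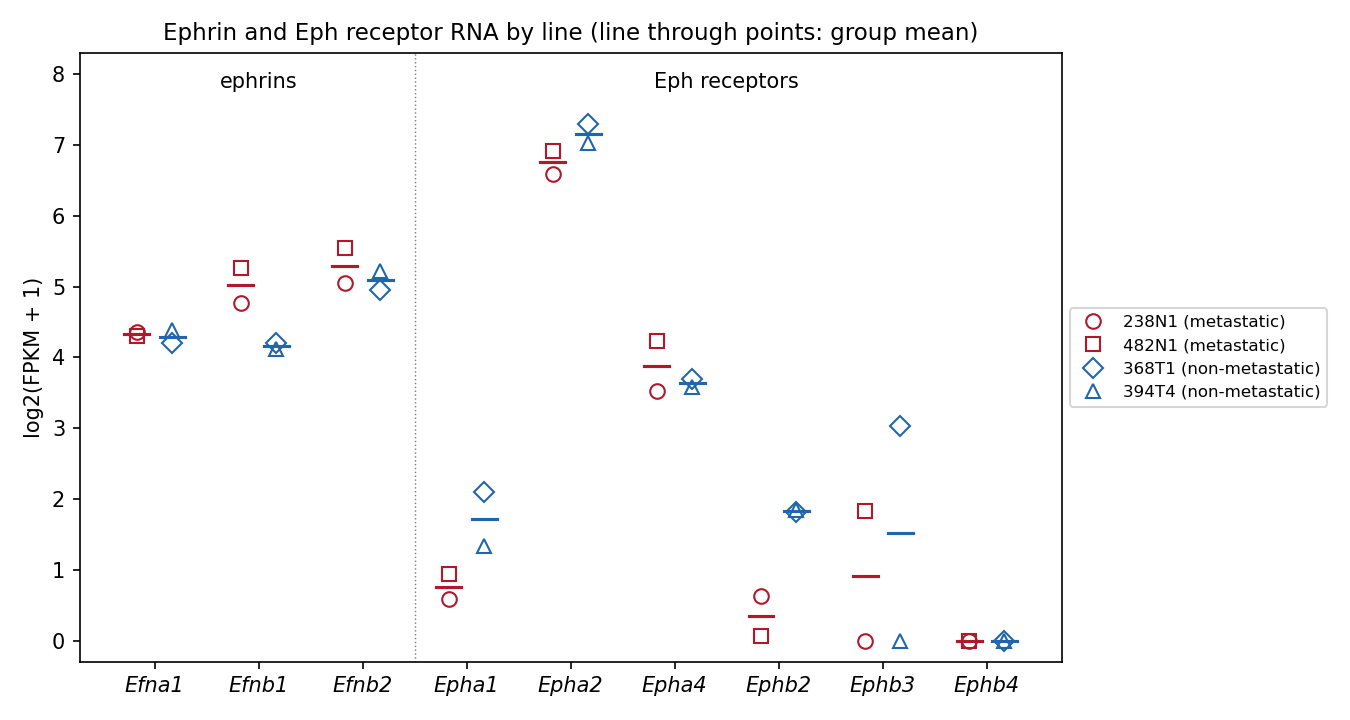
Level of each gene in each line as log2(FPKM + 1), metastatic lines in red to the left and non-metastatic lines in blue to the right, with the mean of each group as a short line. Epha2 stands highest in all 4 lines, Efnb1 is higher in both metastatic lines, Epha1, Epha2 and Ephb2 are lower in both, and Ephb4 is listed at 0 in all 4 lines.

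The question the study's design poses is which genes distinguish metastatic from non-metastatic lines. None of the 9 genes passed the test across the whole table, which applied limma, with its variance trend, to log2(FPKM + 1) values, two-sided, and adjusted p by Benjamini-Hochberg. Of the 12425 genes with a mean of at least 1 FPKM, 0.161% were called at an adjusted p under 0.05, 0.113% as higher and 0.0483% as lower. Of the 9 genes, 8 entered the test and 1, Ephb4, did not. At an unadjusted p under 0.05, Efnb1 lay on the higher side, as did 5.7% of all genes tested, and Ephb2 on the lower side, as did 8.68%. Both metastatic lines lay above both non-metastatic lines in 1 gene of the 8 (28.3% of all genes tested) and below them in 3 (26.9%). Together these are 4 of 8, near the 55.2% of all genes tested whose groups did not overlap. After quantile normalization the groups did not overlap in 3 of the 8 (52.7% of all genes tested), with the metastatic lines above in 1 (24.3%) and below in 2 (28.4%). After scaling to the library sum they did not overlap in 5 (45.5%), above in 3 (43.6%) and below in 2 (1.93%), and after scaling to the protein-coding sum in 6 (58.5%), above in 4 (43%) and below in 2 (15.5%). The 2 below were Epha1 and Ephb2 under each of these scalings. The median log2 fold change of the 8 was -0.18, and that of all genes tested 0.045.

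Among the ligands, Efnb1, which encodes the membrane-spanning ephrin-B1 (chromosome X, 96331469 to 96344330, mm9), measured 26.4 FPKM in 238N1 and 37.5 in 482N1, against 17.3 in 368T1 and 16.3 in 394T4. Both metastatic lines were higher, and the non-metastatic lines nearly coincided. The group means were 31.9 ± 7.87 FPKM (metastatic) and 16.8 ± 0.729 FPKM (non-metastatic) (SD, n = 2 each), a log2 fold change of 0.86 (SE 0.23; limma, adjusted p = 0.335). After scaling to the library sum the log2 fold change was 1.48, with the median of all genes tested then at 0.61. After median centring it was 0.77. Within the metastatic group, 482N1, the line with the higher fibroblast marker sum, exceeded 238N1 by 0.49 on the log2(FPKM + 1) scale. The part of those markers in the Efnb1 difference was not tested, and without 482N1 its log2 fold change was 0.62.

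Efnb2, which encodes ephrin-B2, the known partner of EphB4 (chromosome 8, 8617434 to 8661239, mm9), measured 32.1 FPKM in 238N1 and 45.7 in 482N1, against 30.1 in 368T1 and 36.3 in 394T4. The groups overlapped, since 238N1 lay between the non-metastatic lines, and the log2 fold change was 0.21 (SE 0.24; limma, adjusted p = 0.649). The direction turned without 482N1, to -0.042. After scaling to the library sum or the protein-coding sum both metastatic lines lay above both non-metastatic lines, as they then did in 43.6% and 43% of all genes tested.

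Efna1, which encodes ephrin-A1, a ligand of EphA2 (chromosome 3, 89075655 to 89085064, mm9), was the steadiest of the expressed genes. It measured 19.6 FPKM in 238N1 and 18.8 in 482N1, against 17.4 in 368T1 and 19.9 in 394T4. The lines of both groups were interleaved and spanned 0.19 on the log2(FPKM + 1) scale. The log2 fold change was 0.039 (SE 0.17; limma, adjusted p = 0.916), and it was negative without 368T1 (-0.053) and after median centring (-0.056). After scaling to the protein-coding sum both metastatic lines lay above both non-metastatic lines.

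Among the A-type receptors, Epha2 (chromosome 4, 140857155 to 140885299, mm9) was lower in both metastatic lines, at 108.0 ± 17.3 FPKM against 142.7 ± 18.3 FPKM in the non-metastatic lines (SD, n = 2 each). The log2 fold change was -0.40 (SE 0.19; limma, adjusted p = 0.383), and it was -0.24 without 238N1. The direction depended on scaling: relative to the library sum the log2 fold change was 0.24, with the median of all genes tested then at 0.61, and relative to the protein-coding sum it was -0.18, with that median at 0.24. The groups overlapped under both of these scalings and under quantile normalization.

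Epha1, the first Eph receptor to be described (chromosome 6, 42308486 to 42323267, mm9), measured 0.502 FPKM in 238N1 and 0.916 in 482N1, against 3.28 in 368T1 and 1.52 in 394T4. Both metastatic lines were lower, and 368T1 stood apart from 394T4 by 0.76 on the log2(FPKM + 1) scale. The log2 fold change was -0.95 (SE 0.42; limma, adjusted p = 0.367), and it moved to -1.58 with a pseudocount of 0.1 and to -0.36 with a pseudocount of 5. It was -0.57 without 368T1 and -0.60 relative to the library sum. The end of Epha1 overlaps the gene Zyx on the other strand, which encodes the adhesion protein zyxin, over 160 of its 3273 exon bases. Zyx measured 67.9 (238N1) and 99.0 FPKM (482N1), against 93.7 (368T1) and 117.6 FPKM (394T4), and since the counting is not stated to use strand, reads from that stretch cannot be told apart.

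Epha4, a receptor that binds ephrins of both types (chromosome 1, 77363760 to 77511663, mm9), measured 10.6 FPKM in 238N1 and 17.7 in 482N1, against 11.9 in 368T1 and 11.04 in 394T4. The line with the highest fibroblast marker sum, 482N1, was high and the other lines lay close together, so the groups overlapped. The part of those markers in its value was not tested. The log2 fold change was 0.24 (SE 0.30; limma, adjusted p = 0.670), and it turned to -0.11 without 482N1. As with Efnb2, both metastatic lines lay above both non-metastatic lines after scaling to the library sum or the protein-coding sum.

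Of the 3 B-type receptors, Ephb2 and Ephb3 did not exceed 7.21 FPKM in any line, and Ephb4 was listed at 0. Ephb2, a receptor for B-type ephrins known from the ordering of intestinal epithelium (chromosome 4, 136203454 to 136391903, mm9), measured 0.554 FPKM in 238N1 and 0.0498 in 482N1, against 2.54 in 368T1 and 2.61 in 394T4. The non-metastatic lines nearly coincided, both metastatic lines were lower, and 482N1 was close to 0. The group means were 0.302 ± 0.357 FPKM (metastatic) and 2.57 ± 0.0499 FPKM (non-metastatic) (SD, n = 2 each), a log2 fold change of -1.48 (SE 0.38; limma, adjusted p = 0.335). Since the levels are low, the pseudocount sets the size: the log2 fold change was -3.09 with a pseudocount of 0.1 and -0.52 with a pseudocount of 5. It was negative in each of the 15 alternatives that gave a value. As the groups do not overlap, only the scalings between libraries could have turned its direction. Under those scalings it ran from -1.79 to -1.20. In the fits with all 4 libraries its adjusted p lay between 0.215 and 0.702 (limma). Without 238N1, where 482N1 is the only metastatic library, the log2 fold change was -1.77.

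Ephb3, a close relative of Ephb2 (chromosome 16, 21204828 to 21223378, mm9), was listed at 0 in 238N1 and at 2.57 FPKM in 482N1, against 7.21 FPKM in 368T1 and 0 in 394T4. Each group thus held 1 line at 0, and the log2 fold change of -0.60 had an SE of 1.26 (limma, adjusted p = 0.807). It was 0.32 without 238N1, 0.92 without 368T1 and -2.12 without 394T4. A 0 in this table may be a failed estimate, which was not tested. Of 10301 genes that reached 5 FPKM in some line, 691, or 6.71%, were listed at 0 in another. Ephb4, the receptor for ephrin-B2 known from veins (chromosome 5, 137791337 to 137819897, mm9), was listed at 0 in all 4 lines, which does not show that its RNA was low or absent, and gives no comparison. So were 32.5% of the 22155 protein-coding symbols.

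**Figure D2:**
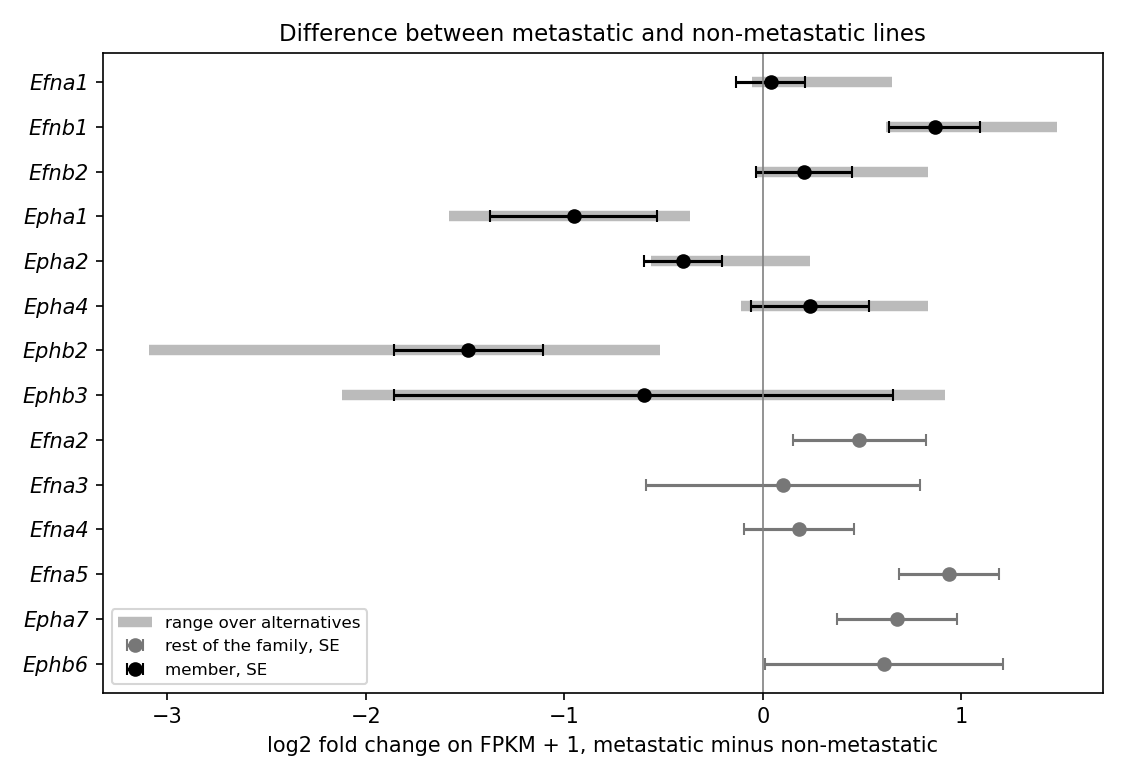
Log2 fold change on FPKM + 1, metastatic minus non-metastatic, with its SE, for the 8 tested members (black) and the 6 other tested genes of the family (grey), with the range over the alternative settings as a grey band for the members. Efnb1 stays above 0 and Epha1 and Ephb2 stay below 0 over their bands, while the bands of Efna1, Efnb2, Epha2, Epha4 and Ephb3 cross 0. As the groups do not overlap for Efnb1, Epha1 and Ephb2, only the scalings between libraries could have turned their direction.

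Epha2 among the receptors and the B-type ephrins among the ligands made up most of the family's listed FPKM in each of the 4 lines. Summed over all 14 Eph receptors, levels were 113.3 FPKM in 238N1 and 156.9 in 482N1, against 185.6 in 368T1 and 150.9 in 394T4. Epha2 alone made up 84.5% and 76.6% of these sums in the metastatic and 83.8% and 86.0% in the non-metastatic lines. Receptors listed at 0, Ephb4 among them, count as 0 in these sums. Summed over all 8 ephrins, levels were 97.3 FPKM in 238N1 and 132.3 in 482N1, against 81.6 in 368T1 and 90.9 in 394T4, so that both metastatic lines were higher. The B-type ephrins held 60.4% and 63.0% of the ephrin sum in the metastatic and 58.4% and 58.2% in the non-metastatic lines, and Efnb1 by itself 27.1% and 28.4% against 21.3% and 17.9%.

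**Figure D3:**
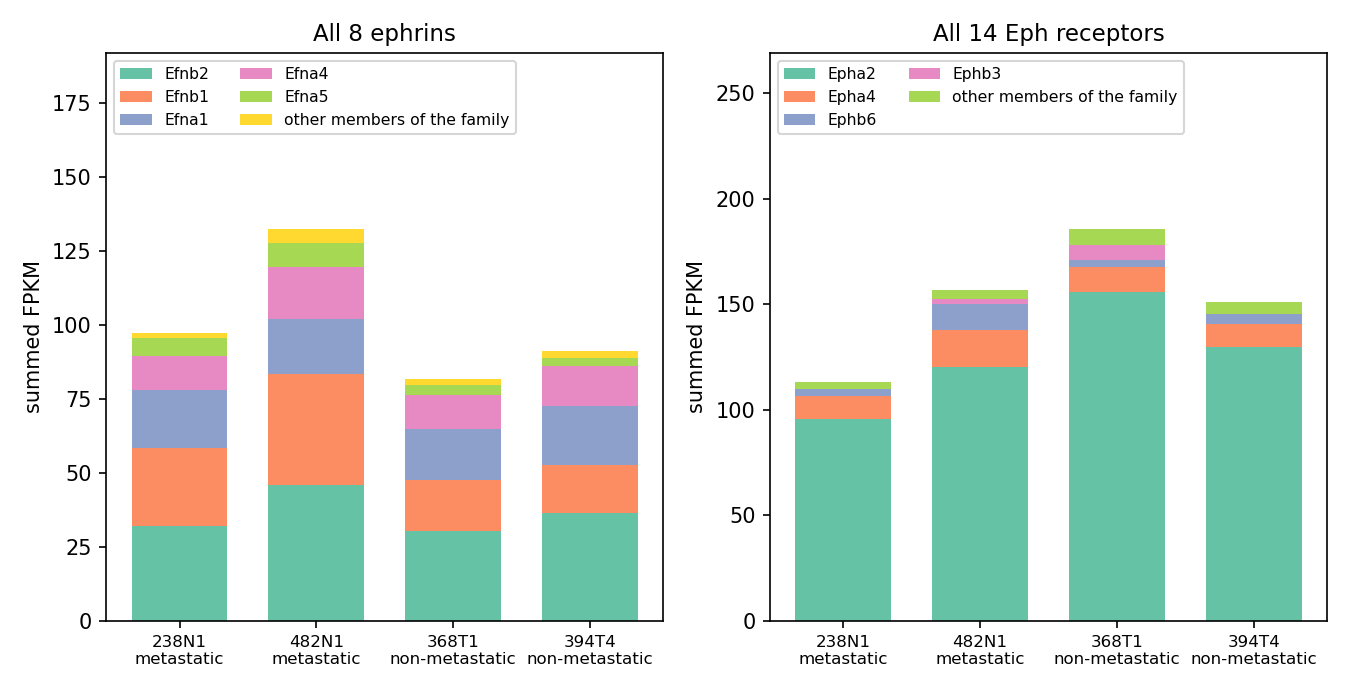
Summed FPKM of all 8 ephrins (left) and all 14 Eph receptors (right) in each line, with metastatic lines to the left, stacked by gene. Epha2 makes up 76.6% to 86.0% of the receptor sum, in which receptors listed at 0 count as 0. The Efnb1 share of the ephrin sum is 27.1% and 28.4% in the metastatic lines against 21.3% and 17.9% in the non-metastatic lines.

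Ratios of genes within a line do not depend on scaling between libraries. They were chosen after the levels had been seen, and with 2 lines against 2 the exact permutation test, two-sided, cannot go below p = 0.333. How often ratios of other genes separate the groups was not counted. Of single genes tested, 55.2% did. The ratio of Efnb1 to Efnb2 was 0.822 in 238N1 and 0.821 in 482N1, against 0.576 in 368T1 and 0.449 in 394T4. The metastatic lines coincided, and the mean ratio was 1.6 times that of the non-metastatic lines (exact permutation p = 0.333). The ratio of Epha2 to its ligand Efna1 was 4.88 in 238N1 and 6.40 in 482N1, against 8.94 in 368T1 and 6.51 in 394T4, so that 482N1 and 394T4 nearly met (exact permutation p = 0.333). Epha2 was at 3.63 (238N1) and 3.21 times (482N1) the level of Efnb1, against 8.97 (368T1) and 7.95 times (394T4) (exact permutation p = 0.333). As Epha2 was lower and Efnb1 higher in both metastatic lines, their ratio had to separate the groups. The sum of the 14 receptors was 1.16 and 1.19 times that of the 8 ephrins in 238N1 and 482N1, against 2.27 and 1.66 times in 368T1 and 394T4 (exact permutation p = 0.333). That ratio counts receptors listed at 0 as 0.

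**Figure D4:**
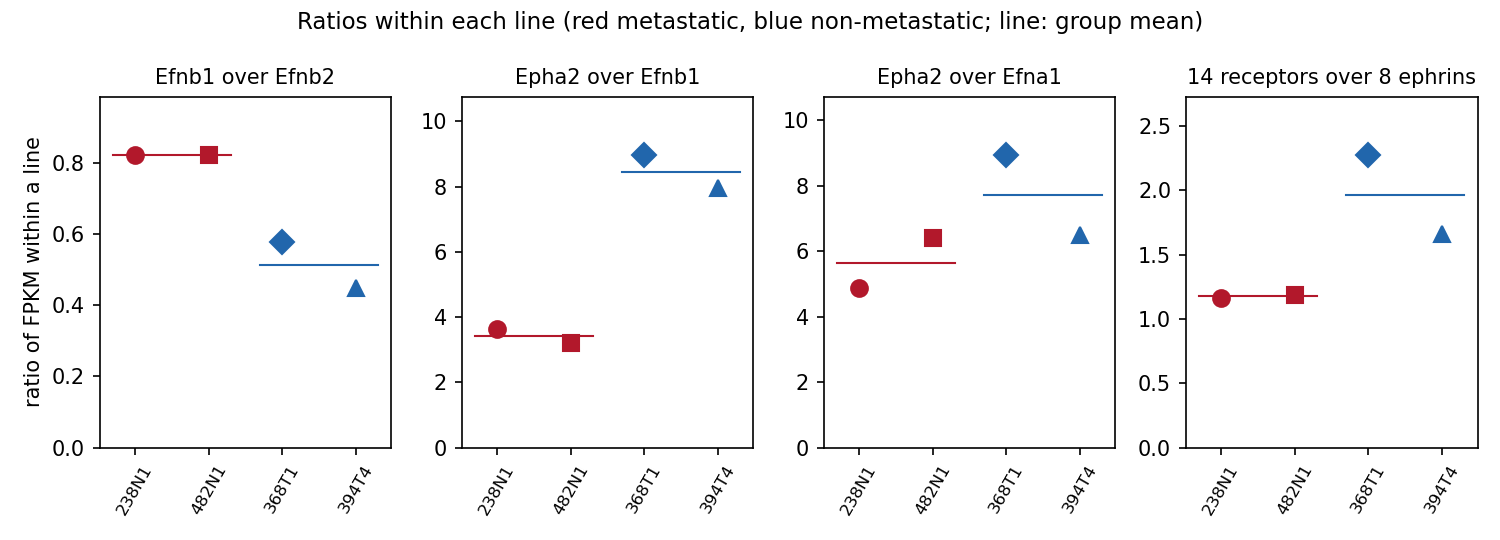
Ratio of FPKM within each line, metastatic in red to the left and non-metastatic in blue to the right, with group means as lines. The metastatic lines lie above the non-metastatic lines for Efnb1 over Efnb2 (0.822 and 0.821 against 0.576 and 0.449) and below them for the other 3 ratios. The ratios were chosen after the levels had been seen.

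Of the 8 other Eph receptors, 2 had a mean of at least 1 FPKM and neither passed (limma, adjusted p under 0.05). Epha7, a receptor known from axon guidance, measured 2.54 (238N1) and 3.33 FPKM (482N1), against 1.68 (368T1) and 1.24 FPKM (394T4) (log2 fold change 0.68, SE 0.30; limma, adjusted p = 0.371). Ephb6, a receptor without kinase activity, measured 3.37 (238N1) and 12.1 FPKM (482N1), against 3.31 (368T1) and 4.72 FPKM (394T4), with 482N1 alone high. Epha5, Epha6, Epha10 and Ephb1 were listed at 0 in all 4 lines, and Epha3 and Epha8 did not exceed 0.0298 FPKM.

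Of the 5 other ephrins, 4 had a mean of at least 1 FPKM and none passed, although all 4 had a positive log2 fold change, as did 6638 of the 12425 genes tested. Efna5, an A-type ephrin known from the mapping of nerve fibres, measured 6.14 (238N1) and 8.07 FPKM (482N1), against 3.43 (368T1) and 2.99 FPKM (394T4). Both metastatic lines were higher, and its log2 fold change of 0.94 (SE 0.25; limma, adjusted p = 0.335) was close to that of Efnb1. Efna4 measured 11.2 (238N1) and 17.4 FPKM (482N1), against 11.2 (368T1) and 13.3 FPKM (394T4), with overlapping groups. Efna2 was low, at 1.41 (238N1) and 1.74 FPKM (482N1), against 0.692 (368T1) and 0.994 FPKM (394T4). Efna3 ranged from 0.178 to 2.97 FPKM over the lines, and Efnb3 did not exceed 0.301 FPKM.

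Genes that act after or on Eph receptors and ephrins were taken from lists drawn from textbook knowledge. Of 28 adaptors, kinases and phosphatases, 26 were tested and none passed in either direction, with a median log2 fold change of 0.18. At an unadjusted p under 0.05 there were 2 higher, Pik3r1 and Crk, and 1 lower, Shb, named after their values were seen. These are 3 of 26, near the 14.4% of all genes tested at such a p. Pik3r1, the regulatory subunit of phosphoinositide 3-kinase, measured 4.92 (238N1) and 7.10 FPKM (482N1), against 2.00 (368T1) and 2.38 FPKM (394T4) (limma, adjusted p = 0.335). The largest differences of that list rested on a line at 0: Sdcbp, the ephrin-B binding protein syntenin, measured 57.0 (238N1) and 88.4 FPKM (482N1), against a listed 0 in 368T1 and 71.2 FPKM in 394T4, and Rgs3 was listed at 0 in 482N1.

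Kalrn, a guanine nucleotide exchange factor that acts after EphB receptors in neurons, measured 4.93 (238N1) and 7.27 FPKM (482N1) and was listed at 0 in both non-metastatic lines (limma, unadjusted p = 0.000862, adjusted p = 0.154). Kalrn and Sdcbp passed after scaling to the library sum, under which the median log2 fold change of all genes tested was 0.61, and Kalrn is named here after its values were seen.

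All 6 listed proteases, which are known to cleave Eph receptors or ephrins, were tested, and none passed, with a median log2 fold change of 0.06. Adam10, which sheds ephrins from the cell surface, measured 34.5 (238N1) and 42.3 FPKM (482N1), against 12.8 (368T1) and 21.7 FPKM (394T4). Both metastatic lines were higher, with a log2 fold change of 1.15 (SE 0.31; limma, unadjusted p = 0.0181, adjusted p = 0.335). Mmp14, a membrane-bound matrix metalloproteinase, measured 22.6 (238N1) and 57.5 FPKM (482N1), against 12.4 (368T1) and 27.9 FPKM (394T4), and the groups overlapped.

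The genes nearest in pattern were found by Euclidean distance between log2(FPKM + 1) values, centred on each gene's mean over the 4 lines, among genes with a mean of at least 5 FPKM. Genes whose symbol is a clone or model name, or that of a small RNA, were left out. For Efnb1, which had the widest range (1.15) of the 3 ephrins among the 9 genes, they were Mkrn1 (distance 0.036), Sec23a (0.074) and Pip4k2a (0.080). Mkrn1 measured 26.3 (238N1) and 36.7 FPKM (482N1), against 17.5 (368T1) and 15.9 FPKM (394T4). For Ephb3, which had the widest range (3.04) of the receptors among the 9 genes, the nearest genes were much farther off, Chac1 at 1.22, Lefty1 at 1.27 and Apoc2 at 1.31. With 4 lines and 7690 candidate genes near matches are a description of these libraries.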

How the data were processed

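RNA of 4 cell lines was measured, with 1 library per line. The labels' protocols and the design text describe Illumina TruSeq libraries of total RNA, read as pairs of 100 bp and aligned to mm9. The submitters' processing notes name TopHat, with no version, and what computed the gene values, on which annotation, is not given in the sources used here. Per the file headers the deposited unit is FPKM, with no stated scaling between libraries. A symbol on several rows was represented by its row of highest mean FPKM. Gene positions are from GENCODE vM1 on NCBIM37, the assembly of mm9, which held 99.0% of the row IDs. Promoter sequences are from RefSeq on GRCm38.p6.

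Groups were compared by limma 3.58.1 (R 4.3.3), with its variance trend, on log2(FPKM + 1) values of the 12425 genes that averaged at least 1 FPKM. Both groups entered 1 fit with no covariate, two-sided, and p-values were adjusted by Benjamini-Hochberg over all these genes. Fold changes are metastatic minus non-metastatic on that log2 scale, where changes of low genes come out too small. The procedure was tested on simulated data, in which all genes of a run had the same spread and none dropped out in single libraries. The real libraries differ in both, so that test does not show how well the fit performs on them. Alternatives were other pseudocounts, filters, scalings and variance models, added rows, removal of genes listed at 0, and each library left out. The members and lists were chosen with earlier results of these data known. All 9 members are named, with up to 4 called members of each list, or else the 2 with the largest fold change, and the 2 most abundant of the other receptors and ephrins. The genes nearest in pattern are given for the ephrin and the receptor of widest range among the 9 members. Some items, part of the shared tumour genotype among them, are not reported here.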

Additional observations from a re-analysis of the deposited data

How the results depend on the processing

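No member passed limma's test under any of the 16 alternatives. Other filters and variance models, and added rows, left each member's log2 fold change as it was, so they could not turn a direction. Of the 124 alternative log2 fold changes of members, these unchanged values included, 117 kept their direction. The 7 that did not were Efna1 after median centring (-0.056) and without 368T1 (-0.053), Epha2 after scaling to the library sum (0.24), Efnb2 and Epha4 without 482N1 (-0.042 and -0.11), and Ephb3 without 238N1 (0.32) and without 368T1 (0.92). Relative to the library sum, with the median of all genes tested at 0.61, Efna1 was at 0.65, Efnb2 at 0.83 and Epha4 at 0.83, and none passed. With 1 library left out the log2 fold change ran from -0.053 to 0.13 for Efna1, -0.56 to -0.24 for Epha2, -0.042 to 0.46 for Efnb2, -0.11 to 0.59 for Epha4 and -2.12 to 0.92 for Ephb3. The ratios within lines were also computed with each library left out, chosen after the data were seen; as the groups do not overlap, their direction could not turn. The smallest adjusted p of any member was 0.128, for Ephb2 without 238N1, where the single metastatic library is assumed to vary like the others. Members whose groups did not overlap numbered 3 of 8 after quantile normalization (52.7% of all genes tested), 5 after scaling to the library sum (45.5%; with Efnb2 and Epha4, without Epha2) and 6 after scaling to the protein-coding sum (58.5%; with Efna1, Efnb2 and Epha4, without Epha2), against 4 (55.2%). Over the whole table, 20 genes passed (14 higher, 6 lower). There were 2 without a filter, 10 at a mean of at least 5 FPKM, 378 after scaling to the library sum (281 higher, 97 lower), 44 without the trend (31 higher, 13 lower), 35 with robust=TRUE (20 higher, 15 lower), 6 without genes listed at 0 (0 higher, 6 lower), and 0 in each fit with 1 library left out, where 574 to 2526 genes had an unadjusted p under 0.05; the cause was not tested. Of the family and pathway lists, 2 genes, Kalrn and Sdcbp, passed after scaling to the library sum, and 0 under every other setting run. Scaling to the protein-coding sum moved the share of higher genes at an unadjusted p under 0.05 to 76.1%, and to the library sum to 82.2%, against 39.6%. No paired analysis was possible because the labels give no replicate numbers shared by the groups. With 2 lines a group and no read totals, the precision of the low receptors is limited.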
